A study of Homo sapiens with 27 samples.

Results

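The abundance of individual short hairpin RNAs (shRNAs) was compared between AZD8931 and its vehicle, DMSO, in UMSCC25, a cell line from a human head and neck squamous cell carcinoma (HNSCC). The members were all shRNAs whose counts in the 3 DMSO and the 3 AZD8931 libraries of this line came to 10 or more. This minimum kept 3075 of the 3177 shRNAs listed (96.8%), and these held 99.99% of the counts in the 6 libraries. Of the 102 below it, 57 had 0 counts in all 6 libraries and 45 had between 1 and 9. At the edge of the rule, 2 members had exactly 10 counts and 7 shRNAs left out had 9. The counts came from a pooled screen of 27 libraries in 9 groups, with DMSO, gefitinib or AZD8931 in UMSCC25, UMSCC8 and UMSCC1, which are all HNSCC lines. In every group the cells carried the same lentiviral kinome shRNA library, had been selected with puromycin, and were treated for 72 hours and left to recover for another 72 hours before harvest at 144 hours. The study's methods and one field of the labels put AZD8931 at 30 nM and gefitinib at 300 nM, while another field has 1.0 μM for both. Each plate of cells gave 1 library, made by PCR of the shRNA cassettes in its genomic DNA, with 3 plates per group. By the study's methods, the cells of a line were transduced and selected first and then divided over the 9 plates, so the plates are not separate transductions. The p-values below therefore measure the spread between plates that arose after this division, which may be technical. The table lists shRNAs by clone identifier without genes, and counts of cassettes carry no marker of cell type, so neither the line nor the knockdown could be checked.

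An shRNA integrated into the genome is copied with the cell and silences the transcript it matches. In a pooled screen each cell carries about 1 cassette, and the share of a cassette among all cassettes therefore follows how well its carriers grew and survived. A cassette that becomes rarer under an inhibitor than under vehicle is the readout of a synthetic lethal search, in which the loss of a gene matters more when a second pathway is blocked, and a cassette that becomes more frequent is the opposite case. AZD8931 inhibits the tyrosine kinase signalling of EGFR, ERBB2 and ERBB3, receptors that pair with one another at the cell surface and drive growth and survival signals in many squamous carcinomas. Gefitinib inhibits EGFR. Because several shRNAs usually target the same transcript, members are not independent of one another, and which of them share a target is not given in the files used here.

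The 3 DMSO libraries held 460550, 468148 and 464740 counts and the 3 AZD8931 libraries held 540576, 459966 and 357486. The median member had 56 to 83 counts in a library. For an shRNA at 0 the limit is 3 counts, or 5.73 to 8.45 CPM, the counts-per-million scale that sets each library to the same total, in these libraries. Such limits cover counting error only, because the PCR products carried no molecular identifiers and a read is not an independent molecule. Plates of a group differed by more than sampling noise, with a reduced chi-square of 6.66 to 7.86 between DMSO plates and 8.66 to 14.6 between AZD8931 plates. It was 14.8 to 22.0 between gefitinib plates, which also entered the spread in the edgeR fit of all 9 UMSCC25 libraries used below. On the log2(CPM + 1) scale, the correlation across members, a description over shRNAs that share 1 library and its uneven abundance, was 0.861 to 0.874 between DMSO plates and 0.795 to 0.838 between AZD8931 plates. It was 0.806 to 0.835 between an AZD8931 and a DMSO plate, so AZD8931 plates resembled DMSO plates about as much as they resembled one another.

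No member passed an adjusted p of 0.05 in either direction by edgeR's quasi-likelihood test (0 of 3075, 0%). The smallest adjusted p was 0.150, shared by 6 shRNAs, of which 5 were higher and 1 was lower with AZD8931. At an unadjusted p under 0.05, 119 members were lower (3.87%) and 168 were higher (5.46%). That split depended on scaling. When libraries were scaled to their total counts alone, 161 were lower and 136 were higher. The number also depended on single plates. Without DMSO plate 1 it was 69 lower and 110 higher, without DMSO plate 2 it was 73 lower and 105 higher, and no library left out brought any member past an adjusted p of 0.05.

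The count of 0 did not hold under all tools. It came from a fit of all 9 UMSCC25 libraries, so the gefitinib plates entered the spread behind its p-values. When only the 6 DMSO and AZD8931 libraries were fitted, edgeR's quasi-likelihood test called 3 members lower and 15 higher, with a smallest adjusted p of 0.00436. On all 9 libraries, DESeq2 called 1 lower and 7 higher, and edgeR's exact test 1 lower and 6 higher. Together these 3 alternatives called 19 members, 16 higher and 3 lower. All 19 had AZD8931 plates that did not overlap the DMSO plates, against 19.6% of all members. They were called on these same plates, so this separation is no further evidence. Of the 19, 12 were in the most abundant quartile of the members and 0 in the least abundant, and their fitted changes were 0.89 to 2.14 in size on the log2 scale. Called by all 3 alternatives were 6 members, TRCN0000001495 lower and TRCN0000000374, TRCN0000000483, TRCN0000001744, TRCN0000002318 and TRCN0000038018 higher.

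TRCN0000001495 was the lower shRNA with the smallest p. Its counts were 634, 640 and 651 in the DMSO plates and 232, 234 and 238 in the AZD8931 plates. Every AZD8931 plate was far below every DMSO plate. The counts within each group lay close together, but the AZD8931 libraries differed in depth. In CPM the AZD8931 plates were spread, at 443, 505 and 670. At 1328 ± 9.36 CPM with DMSO and 540 ± 117 CPM with AZD8931 (SD, n = 3 plates each), the log2 fold change was −1.30 with a standard error (SE) of 0.29, with an edgeR adjusted p of 0.150. Leaving out any 1 library moved the fold change only between −1.48 and −1.18. It was also the largest change lower with separate plates in the most abundant quartile.

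The lower shRNA with the next smallest p was TRCN0000003202, with 171, 164 and 119 counts in the DMSO plates and 69, 51 and 41 in the AZD8931 plates. The groups did not overlap, and the third DMSO plate was the lowest of its group. The level was 313 ± 60.2 CPM with DMSO and 119 ± 11.4 CPM with AZD8931, a log2 fold change of −1.39 (SE 0.37, edgeR adjusted p = 0.372). It lay in the third quartile of abundance, where it was the largest change lower among shRNAs with separate plates, and the fold change stayed between −1.54 and −1.29 without any 1 library.

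On the higher side, TRCN0000000374 had the smallest p of all members and was among the abundant shRNAs of the library. Its counts were 2835, 2916 and 3076 with DMSO and 5233, 6087 and 5255 with AZD8931. All AZD8931 plates were above all DMSO plates, and in CPM the third AZD8931 plate was the highest at 14798 CPM and the first the lowest at 10002 CPM. The means were 6088 ± 212 CPM and 12647 ± 2436 CPM, the log2 fold change was 1.05 (SE 0.21), and edgeR gave an adjusted p of 0.150 (7.54e-05 before adjustment).

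TRCN0000000483, next by p, started from a low level. It had 19, 24 and 26 counts in the DMSO plates and 122, 109 and 58 in the AZD8931 plates, so that the AZD8931 plates were spread but all lay above the DMSO range. The level was 47.6 ± 7.11 CPM with DMSO and 211 ± 41.0 CPM with AZD8931, a log2 fold change of 2.14 (SE 0.44, edgeR adjusted p = 0.150), and it remained between 2.03 and 2.29 without any 1 library. TRCN0000038018 was the largest change higher with separate plates in the third quartile of abundance, with 53, 50 and 43 counts against 170, 173 and 136. Its plates agreed closely in both groups, at 101 ± 11.3 CPM and 360 ± 31.1 CPM. Its log2 fold change was 1.84 (SE 0.41, edgeR adjusted p = 0.150).

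A pair of further shRNAs, chosen after their values were seen because all 3 alternatives called them, had the same form in the most abundant quartile. TRCN0000001744 had 122, 173 and 109 counts with DMSO and 310, 257 and 324 with AZD8931, a log2 fold change of 1.30. TRCN0000002318 had 60, 99 and 93 with DMSO and 268, 190 and 191 with AZD8931, a log2 fold change of 1.49. In both, the lowest AZD8931 plate stood well above the highest DMSO plate, which their choice on these same plates makes likely.

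Agreement of plates was described without the model by asking whether all 3 AZD8931 plates lay below, or all 3 above, all 3 DMSO plates in CPM. This held for 302 members on the lower side (9.82%) and 301 on the higher side (9.79%), or 603 in all (19.6%). For a single member with exchangeable plates and no ties, separation in either direction has a probability of 0.1. Members share their plates and are not independent, so the share over all members was not tested against this. The median log2 fold change was −0.78 among the 302 and 0.82 among the 301. Of the 119 lower members at an unadjusted p under 0.05, 106 had separate plates (3.45% of all members), as did 133 of the 168 higher ones (4.33%), and the other 48 of these members had plates that overlapped (1.56%). At the other end, 1415 members had no AZD8931 plate below the DMSO range and 1338 had none above it. With a plate left out fewer plates must separate, and the counts were 431 to 534 lower and 412 to 553 higher, with 534 and 553 without AZD8931 plate 1, 468 and 475 without AZD8931 plate 3, and 438 and 452 without AZD8931 plate 2. With total-count scaling 356 were lower and 240 higher.

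The fitted value was below 0 for 1488 members (48.4%) and above 0 for 1587 (51.6%). It was −1 or less for 176 (5.72%) and 1 or more for 247 (8.03%), a change of at least 2-fold. At least 4-fold were 32 lower (1.04%) and 38 higher (1.24%) members, or 36 higher (1.17%) when an shRNA at 0 in a whole group was set to its limit of 3 counts. Of the 423 members with a change of at least 2-fold, 97 lower (3.15%) and 123 higher (4%) ones had separate plates (220, or 7.15% of all members), and 203 had plates that overlapped (6.6%). The change was at least 2-fold in 1 direction whichever library was left out in 74 lower (2.41%) and 117 higher (3.8%) members (191, or 6.21% of all). The sign turned without 1 library in 1167 members (38%), but in only 23 of the 423 (0.748% of all members), and 22 of these 23 were in the least abundant quartile.

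Size depended on abundance. Members were divided into quartiles by their mean CPM over the 6 libraries. The lowest quartile ran from 3.76 to 68.2 CPM with a median of 14 counts per library, the second from 68.3 to 164 CPM with 49, the third from 164 to 317 CPM with 103, and the highest from 318 to 64427 CPM with 240. The highest quartile held 70.6% of the counts and the lowest 2.80%.

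The median log2 fold change was near 0 in each, at −0.01, 0.05, 0.03 and −0.01 from the lowest quartile to the highest. The interquartile range narrowed from 1.32 in the lowest quartile through 0.89 and 0.66 to 0.51 in the highest. The median SE narrowed alongside, from 0.90 through 0.52 and 0.39 to 0.30. A change of at least 2-fold was therefore common among scarce shRNAs, with 248 of 768 (32.3%) in the lowest quartile, 102 of 769 (13.3%) in the second, 49 (6.37%) in the third and 24 (3.12%) in the highest. Of the 24 in the highest quartile, 3 were lower and 21 higher.

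Separate plates ran the other way. The share of members with separate plates in either direction was 15.2% in the lowest quartile, 17.4% in the second, 20.9% in the third and 24.8% in the highest. The lowest quartile had 70 lower and 47 higher such members, and the highest had 92 lower and 99 higher. Their median change shrank with abundance, from −1.43 to −0.52 for lower members and from 1.69 to 0.63 for higher ones. The SD between plates on the log2(CPM + 1) scale was smaller at higher abundance in both groups, from a median of 0.798 to 0.218 for DMSO and from 0.974 to 0.303 for AZD8931, and was larger for AZD8931 in each quartile. Over all members the median SD was 0.365 for DMSO, 0.483 for AZD8931 and 0.581 for gefitinib.

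The largest changes with separate plates in the lowest quartile, ranked with shRNAs at 0 in a whole group set to their limit of 3 counts, rested on few counts. TRCN0000037491 had 5, 11 and 6 counts with DMSO and 0, 1 and 0 with AZD8931. The plates were separate, but the whole comparison was 22 counts against 1, a ratio of 0.0491 with an exact 95% counting interval of 0.00119 to 0.304. Its fitted log2 fold change was −3.92 (SE 1.78, edgeR adjusted p = 0.517) and moved between −5.79 and −3.40 without 1 library. TRCN0000021567 was its counterpart on the higher side, with 3, 0 and 0 counts against 10, 15 and 17. The ratio was 15.1 with a counting interval of 4.83 to 76.3, and the fitted value was 3.82 (SE 1.55, edgeR adjusted p = 0.491), moving between 3.29 and 6.89 without 1 library, the latter without DMSO plate 1.

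In the second quartile the largest change lower with separate plates was TRCN0000037423, with 117, 63 and 67 counts against 33, 13 and 13. The first plate was the highest in each group, and the groups did not overlap. The level was 171 ± 63.8 CPM with DMSO and 42.6 ± 18.3 CPM with AZD8931, a log2 fold change of −1.99 (SE 0.56, edgeR adjusted p = 0.372). The largest change higher there was TRCN0000005695, with 0, 8 and 19 counts against 58, 41 and 56. Its DMSO plates were the uneven ones, and the log2 fold change of 2.66 (SE 0.78) ranged from 2.08 to 3.80 without 1 library.

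In the highest quartile the largest change higher with separate plates was TRCN0000102629, and its AZD8931 plates were uneven. It had 114, 78 and 77 counts with DMSO and 147, 415 and 191 with AZD8931. In CPM the AZD8931 plates stood at 281, 896 and 538 above a highest DMSO plate of 238, so the second was the highest and the first lay close to the DMSO range. The level was 186 ± 45.2 CPM against 572 ± 309 CPM. The log2 fold change was 1.62 (SE 0.58, edgeR adjusted p = 0.423), and it was between 1.15 and 1.94 without 1 library. With only the 6 libraries compared in the fit, edgeR's quasi-likelihood test gave an adjusted p of 0.0385.

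Some changes of at least 2-fold with overlapping plates were carried by 1 plate, which this choice of members makes likely. The same share was not taken over other members. Of the 124 members at least 2-fold higher with overlapping plates, 84 had 1 AZD8931 plate with more than 50% of the group's summed CPM. That plate was the first in 24, the second in 34 and the third in 26. Of the 79 members at least 2-fold lower with overlapping plates, 45 had 1 DMSO plate with more than 50%, the first in 13, the second in 19 and the third in 13. No plate accounted for most of these members in either group.

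Disappearance of a cassette was rare. In all 3 AZD8931 libraries 6 members had 0 counts (0.195%), against 2 with 0 in all 3 DMSO libraries (0.065%). The 6 had 15 to 29 counts summed over the DMSO libraries, and in 5 of them 1 DMSO library held more than 50% of the DMSO level. The plates were separate in 2 of the 6, named here after their values were seen. TRCN0000000640 had 10, 8 and 11 counts with DMSO, which with a limit of 3 counts over the AZD8931 group makes it at least 8.94-fold lower (edgeR adjusted p = 0.409). TRCN0000037664 had 9, 5 and 3 counts with DMSO and was at least 5.24-fold lower (edgeR adjusted p = 0.498).

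The most abundant shRNA, TRCN0000121186, also chosen after its values were seen, had a larger share of every AZD8931 library than of any DMSO library. Its counts were 22939, 24977 and 28900 with DMSO and 37720, 38274 and 25910 with AZD8931. That was 4.98%, 5.34% and 6.22% of the counts against 6.98%, 8.32% and 7.25%, or 5.51% ± 0.637 against 7.52% ± 0.711 (SD, n = 3). The groups did not overlap, and a 2-sided exact permutation test gave p = 0.1, the smallest that 3 plates against 3 allow (0.15 adjusted over 3 library measures). Its log2 fold change was 0.52 (SE 0.21, edgeR adjusted p = 0.489).

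By a second measure the AZD8931 libraries were also less even. The most abundant shRNAs that together made up 50% of the counts numbered 297, 286 and 297 with DMSO and 262, 281 and 270 with AZD8931, again without overlap (exact permutation p = 0.1, adjusted 0.15). TRCN0000121186 is among these shRNAs, and its larger share by itself lowers their number. The measure is therefore not separate from that share, and evenness without TRCN0000121186 was not tested. The number of listed shRNAs at 0 was 123, 126 and 162 with DMSO and 187, 142 and 173 with AZD8931, which overlapped (exact permutation p = 0.2, adjusted 0.2). Thinned to the same 357486 counts per library, the means were 144 and 172 shRNAs at 0, 293 and 271 shRNAs making up 50%, and 5.51% and 7.52% for the top shRNA, with the same p-values.

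The study pairs 6 clones with TGFBR1 or TGFBR2, the receptor kinases of TGF-β. It chose all 6 on libraries that include these DMSO plates, so their direction is no independent evidence. It lists 4 of them for AZD8931 in UMSCC25, with the same counts in the same 6 libraries as here. The direction of these 4 therefore followed from the choice and is no evidence, also beside the 48.4% of all members below 0. Their fitted values were −1.25 (TRCN0000039777), −0.93 (TRCN0000039775), −1.15 (TRCN0000040011) and −0.68 (TRCN0000040008). The others, listed for gefitinib, were at −0.50 (TRCN0000039776) and 1.13 (TRCN0000039774). Without 1 library the values ranged from −2.46 (AZD8931 plate 3 left out) to −0.80 (AZD8931 plate 1) for TRCN0000039777 and from −1.09 to −0.16 for TRCN0000040008. They ranged from −1.01 to −0.25 for TRCN0000039776 and from 0.56 to 3.18 for TRCN0000039774. The plates were separate for TRCN0000040011 alone, with 52, 54 and 73 counts against 34, 21 and 20 (SE 0.54, edgeR adjusted p = 0.529). The study used another method, with a p-value per shRNA and a combined value and rank per gene. That method was not repeated here, so the edgeR values are not a like measure.

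Gefitinib was compared with the same 3 DMSO plates, by the methods at another dose, and its values stand beside those of AZD8931 without a comparison. Because these DMSO plates enter both values, a like direction with both agents is not independent. TRCN0000001495 had 212, 381 and 229 counts with gefitinib, and its log2 fold change against DMSO was −0.99. TRCN0000000374 had 4571, 4560 and 6818, a change of 1.05, and TRCN0000000483 had 94, 42 and 74, a change of 1.81. For TRCN0000003202 the gefitinib value was −0.74, for TRCN0000037423 −1.32, for TRCN0000005695 2.09, for TRCN0000038018 1.01 and for TRCN0000021567 0.51. For TRCN0000037491 it was −3.86, with 0, 0 and 1 counts. TRCN0000102629 had a gefitinib value of −0.57, with 120, 10 and 25 counts.

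UMSCC8 and UMSCC1 carried the same library on plates of their own, with their own DMSO controls, and show whether the direction seen in UMSCC25 recurred. By the same rule as in UMSCC25, plates were separate for 7.88% of 3111 shRNAs on each side in UMSCC8, and for 6.7% of 3045 on the lower side and 5.58% on the higher side in UMSCC1. TRCN0000001495 was also lower in UMSCC8 with separate plates, at 296, 340 and 452 counts against 168, 158 and 159 (log2 fold change −1.15, SE 0.29, edgeR adjusted p = 0.561). TRCN0000000374 was also higher there with separate plates, at 8625, 8906 and 10248 counts against 11541, 20918 and 13641 (log2 fold change 0.70, SE 0.22, edgeR adjusted p = 0.561). In UMSCC1 the plates of both shRNAs overlapped, with log2 fold changes of −0.03 and 0.46. TRCN0000000483 and TRCN0000038018 had values of 0.06 and 0.08 in UMSCC8 and −0.17 and −0.35 in UMSCC1, all with overlapping plates. Some signs were the opposite of those in UMSCC25. TRCN0000003202, lower in UMSCC25, had 0.23 in UMSCC8 and 0.64 in UMSCC1, and TRCN0000005695, higher in UMSCC25, had −0.46 and −1.12, again with overlapping plates. TRCN0000037423 had −0.64 and −0.41 with overlapping plates, and TRCN0000037491 had −1.20 in both lines, with separate plates in UMSCC1.

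Over all members with separate plates in UMSCC25, 300 lower ones could be followed in UMSCC8, and 37 of them (12.3%) were lower there with separate plates, against 7.93% of all shRNAs followed. Those 37 were 15.2% of the lower shRNAs of UMSCC8. Of 300 higher members, 46 (15.3%) were higher in UMSCC8, or 18.9% of the higher shRNAs of that line. Opposite directions were seen in 23 lower (7.67%) and 9 higher (3%) members, each against 7.93% of all. Without DMSO plate 1 of UMSCC8, which leaves fewer plates to separate, 63 lower (21% against 14.3%) and 68 higher (22.7% against 12.7%) members had the same direction. The fitted changes of the lines had a Pearson's r of 0.20 and a Spearman's rho of 0.21 over 3065 shRNAs, a description over points that share a library and its abundances.

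In UMSCC1 the shares in the same direction were below those of all shRNAs and the shares in the opposite direction were above them. Of 297 lower members, 13 (4.38%) were lower there with separate plates, against 6.77% of all shRNAs followed, and 23 (7.74%) were higher against 5.54% of all. Of 297 higher members, 13 (4.38%) were higher against 5.54% of all, and 32 (10.8%) were lower against 6.77%. The fitted changes had an r of −0.22 and a rho of −0.16 over 3014 shRNAs. This leaned on 1 library, since without AZD8931 plate 1 of UMSCC1 the r was −0.13 and the rho −0.03, with 29 lower (9.76% against 10.9%) and 31 higher (10.5% against 9.33%) members in the same direction and 31 lower (10.4% against 9.33%) and 34 higher (11.5% against 10.9%) ones in the opposite direction.

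The difference of the AZD8931 effect between lines was tested as an interaction over the 27 libraries with edgeR's quasi-likelihood test. Between UMSCC25 and UMSCC8, 0 of 3125 shRNAs passed an adjusted p of 0.05 (0%), with 100 at an unadjusted p under 0.05 (3.2%). Between UMSCC25 and UMSCC1, 2 of 3114 passed (0.0642%), with 415 at an unadjusted p under 0.05 (13.3%). This count was 0 with a replicate block and 0 in a fit of only the AZD8931 and DMSO libraries of these lines, and limma-voom called TRCN0000001935 (adjusted p = 0.0326) but not TRCN0000010207 (adjusted p = 0.174).

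TRCN0000001935 had 3, 15 and 1 counts with DMSO and 24, 25 and 33 with AZD8931 in UMSCC25, but 19, 12 and 37 with DMSO and 0 in all 3 AZD8931 plates of UMSCC1 (interaction edgeR adjusted p = 0.0396). In UMSCC1 that is at least 20.5-fold lower with a limit of 3 counts over the group, and in UMSCC25 the log2 fold change was 2.26 (SE 1.06). TRCN0000010207 had 60, 10 and 18 counts against 23, 5 and 7 in UMSCC25, with overlapping plates, and 14, 10 and 27 against 291, 81 and 95 in UMSCC1, a difference of log2 fold changes of −4.76 (SE 0.99, interaction edgeR adjusted p = 0.0420). Without AZD8931 plate 1 of UMSCC1 neither passed, with edgeR adjusted p-values of 0.155 and 0.268. Neither passed without DMSO plate 1 (0.133 for each), DMSO plate 3 (0.0787 and 0.0725), AZD8931 plate 2 (0.0644 and 0.1002) or AZD8931 plate 3 (0.131 and 0.153) of UMSCC25, or without DMSO plate 3 of UMSCC1 (0.0997 for each). TRCN0000010207 was also lost without DMSO plate 1 of UMSCC1 (0.0547), and over the libraries left out in turn 0 to 31 shRNAs passed. For TRCN0000003202, lower in UMSCC25, the difference from UMSCC1 was −2.05 (SE 0.56) and did not pass (edgeR adjusted p = 0.0913).

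Clone identifiers were finally read as numbers, since clones made for the same target are often numbered in a row. Of 298 lower members with separate plates and a neighbour 1 number away, 65 (21.8%) had a neighbour that was also lower with separate plates, against 502 of 3012 (16.7%) for all members with a neighbour. Of 291 higher members, 54 (18.6%) had a higher neighbour, against 487 of 3012 (16.2%). A neighbour in the opposite direction was found for 41 lower (13.8%) and 42 higher (14.4%) members. The fitted changes of neighbours had a Pearson's r of 0.05 and a Spearman's rho of 0.07 over 2627 pairs, as a description.

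Among 6 long ranges of clone numbers, defined after the data were seen by gaps of more than 1500 numbers, 1 stood apart. The 279 members from TRCN0000009847 to TRCN0000011972 had a median log2 fold change of 0.22, against 0.00 for all other members and −0.03 to 0.01 for the other ranges. In this range 37 members were higher with separate plates (13.3%, against 9.79% of all members) and 16 were lower (5.73%, against 9.82%). Its median level of 100 CPM was the lowest of the 6 ranges, the others lying at 116 to 174 CPM. Relative to the other members the range was 0.05 higher on the log2 scale in AZD8931 plate 1 but 0.35 and 0.37 higher in plates 2 and 3. The DMSO plates were at 0.06, −0.02 and −0.02 and the gefitinib plates at 0.16, −0.28 and −0.12. In UMSCC8 the range was at −0.22 to 0.16 in the DMSO plates and 0.22 to 0.31 in the gefitinib plates. The AZD8931 plates of UMSCC8 were at −0.03, 0.31 and 0.17. In UMSCC1 it was at −0.18 to 0.32 in the DMSO plates and 0.12 to 0.21 in the gefitinib plates. The AZD8931 plates of UMSCC1 were at −0.88, 0.07 and −0.25. What set the range apart was not tested. Without the range, 281 lower and 261 higher members had separate plates.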

How the data were processed

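The values are unnormalized read counts per shRNA, which the authors deposited as 1 table for all libraries, made from PCR products of the integrated cassettes. The submitters' processing notes name Bowtie 1.0.0, edgeR and hg19, without saying how each was used. Groups follow the cell line and agent named in the labels, and each column was matched to a sample.

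The main test was edgeR's quasi-likelihood test (version 4.0.16, R 4.3.3, robust glmQLFit, TMM normalization, Benjamini-Hochberg adjustment over all 3075 shRNAs), with the 9 UMSCC25 libraries in 1 fit and no replicate term. CPM uses TMM-scaled totals. SE was derived from the quasi-likelihood F. The common biological coefficient of variation was 40.8%. Interactions used all 27 libraries. The scripts were tested on simulated data. Alternatives were RLE size factors, total counts only, at least 1 count, filterByExpr, only the 6 libraries compared, DESeq2 1.42.0, edgeR's exact test, a replicate block, each library left out, limma-voom (limma 3.58.1) for interactions and, added after the data were seen, leaving out a range of clone numbers.

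Members, lists and rules were chosen with earlier results of these data known. Named were the 2 shRNAs with the smallest p in each direction, the largest change in each direction with separate plates in each abundance quartile, the clones paired with TGFBR1 or TGFBR2, and any that passed a test. Nothing states that equal numbers pair plates, so the numbers were not used as pairs. Deviations of same-numbered AZD8931 and DMSO plates had correlations of −0.06, −0.02 and −0.04, and different-numbered ones −0.02 to 0.05. Same-numbered AZD8931 and gefitinib plates had −0.16, −0.15 and −0.15.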

Additional observations from a re-analysis of the deposited data

Results flagged for a closer look

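The effect of AZD8931 differed between UMSCC25 and UMSCC1 for 2 shRNAs by the interaction test over 27 libraries, a call lost for both with a replicate block, in a fit of only the AZD8931 and DMSO libraries of these lines, and without any 1 of DMSO plate 3 and AZD8931 plate 1 of UMSCC1 and DMSO plates 1 and 3 and AZD8931 plates 2 and 3 of UMSCC25, and for TRCN0000010207 also with limma-voom and without DMSO plate 1 of UMSCC1. The fitted difference of log2 fold changes, UMSCC25 minus UMSCC1, was 9.93 (SE 1.94) for TRCN0000001935, a value that depends on the prior count because all 3 AZD8931 libraries of UMSCC1 were at 0, and −4.76 (SE 0.99) for TRCN0000010207. For a further shRNA, TRCN0000102629, all AZD8931 plates were in CPM above the DMSO plates in UMSCC25 and below them in UMSCC1, there at 47, 11 and 175 counts with DMSO and 2, 11 and 20 with AZD8931, and the fitted difference was 4.12 (SE 1.07), which did not pass the test (edgeR adjusted p = 0.0768).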

How the results depend on the processing

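The count of 0 members at an adjusted p of 0.05 held in both directions under RLE size factors, total counts, at least 1 count, filterByExpr, the replicate block, without the range of clone numbers and without any 1 library. With only the 6 libraries compared it became 3 lower and 15 higher (and 180 lower at an unadjusted p under 0.05), with DESeq2 1 and 7, and with edgeR's exact test 1 and 6. Without each library in turn, members at an unadjusted p under 0.05 numbered 69 to 145 lower and 105 to 172 higher, those with separate plates 431 to 534 lower and 412 to 553 higher, and the median log2 fold change of quartile 3 of abundance was 0.00572 to 0.0570. With total counts only, the medians of quartiles 2, 3 and 4 were −0.0175, −0.0357 and −0.0798. The replicate block gave 95 lower and 160 higher members at an unadjusted p under 0.05, and it took the shRNAs whose AZD8931 effect differed between UMSCC25 and UMSCC1 from 2 to 0. That count was also 0 in a fit of only those lines' libraries, 1 with limma-voom, and 0 to 31 without 1 library. The fitted AZD8931 values of 23 named shRNAs in UMSCC25 kept their sign in all 339 values from 15 settings. Of the 23, 5 were not tested under filterByExpr, and TRCN0000010207 was not tested without the range that holds it. Most of the 23 were named for their values in these same libraries, so a kept sign is no independent support. Over all members, the sign turned without 1 library in 38%. With 3 plates a group, the main test told no change in any quartile of abundance from the spread between plates. In the lowest quartile, with a median of 14 counts per library, the 3 alternatives that called members elsewhere called 0.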
